A study of Mus musculus with 8 samples.

Results

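The genes described here encode the proteins of the mitochondrial ribosome in CD4+ T cells with and without Irak1. They were chosen by name: every gene with a probe set of its own whose symbol begins with Mrpl or Mrps and a digit, pseudogenes aside. That gave 71 of the 22180 named genes on the array, 43 called Mrpl and 28 called Mrps. By the known structure of the particle, 45 of the proteins sit in the large subunit and 25 in the small one. Mrps18a and Mrps30 are counted with the large subunit, where their proteins lie despite the name. Mrps36 belongs to neither: its protein was once listed in the small subunit and is now known as a part of the 2-oxoglutarate dehydrogenase complex of the citric acid cycle. The name therefore describes 70 of the 71 genes.

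Mitochondria keep a ribosome of their own, which makes the few proteins encoded by mitochondrial DNA, all of them core subunits of the respiratory chain and the ATP synthase. Its RNAs come from the mitochondrial genome, but all of its proteins are encoded in the nucleus, made in the cytosol and imported. Many of them have counterparts in the bacterial ribosome, and the rest are additions found in mitochondria alone. Activated T cells enlarge their mitochondria as they leave rest, and mitochondrial protein synthesis is part of that growth.

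Expression was measured on 8 Affymetrix arrays, 4 of wt (CD45.1) and 4 of Irak1-/- (CD45.2) T cells, all on the C57BL/6 strain. IRAK1 is a kinase of the signalling path below Toll-like and interleukin-1 family receptors. Each Rag1-/- recipient, a mouse without T or B cells that develops colitis after such a transfer, was given a mix of CD4+CD62L+ cells of both genotypes at a ratio of 1 to 1. CD3+CD4+ T cells were recovered by CD45 type, 14 days on, from mesenteric lymph nodes, to a purity that the labels put above 99.5%. Each of the 4 batches pooled 2 recipients and gave 1 array of each genotype, so that the wt and Irak1-/- arrays with the same number saw the same hosts. The genotypes differ at the CD45 locus as well as at Irak1, and the colitic host is shared by both. The comparison asks which transcripts depend on Irak1 inside the T cell when the inflamed surroundings are the same.

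The Irak1 probe set itself read 7.16, 6.89, 6.64 and 6.39 in wt and 6.93, 6.83, 7.0 and 6.61 in Irak1-/- on the log2 scale. The ranges overlapped (adjusted p = 0.95, limma), and no source used here says whether its probes lie in the deleted part of the gene, so these levels do not check the genotype. Every direction below rests on the arrays' labels. Among all 13308 genes tested, 10 passed an adjusted p under 0.05, of which 9 were higher in Irak1-/- (0.0676% of all) and 1 lower (0.00751%). Myeloid markers stood apart between the groups: 5 of the 15 tested were called, all higher in Irak1-/-, with a mean level over the list of 4.56 to 4.89 in wt and 5.69 to 6.34 in Irak1-/-. Lyz2, Csf1r, Cybb, Mpeg1 and Clec4a3 had wt means under the level filter (a mean of 3.90 over the 8 arrays) and entered the test through the Irak1-/- arrays; of the other 10, 3 were called. Lyz2, which encodes lysozyme of macrophages and neutrophils, went from 2.34 to 4.59 in wt to 7.30 to 8.78 in Irak1-/-. T cell markers were level, at a list mean of 9.91 to 10.10 on every array, while the medians of the NK and CD8 T cell list and the B cell list differed by -0.51 and 0.03, with no gene called. The NK and CD8 T cell list was split. Of its 7 genes, 4 were lower at an unadjusted p under 0.05 (57.1%, beside 3.82% of all genes). The other 3 were above 0. In such bulk samples, fewer cells of a type and less RNA per cell cannot be told apart. Irak1-/- replicate 3 correlated with the other arrays at 0.957 to 0.970, against 0.976 to 0.986 among the other 7. The part of the marker differences in the results below was not tested. Fits without Irak1-/- replicate 3 are given below, and its part was not tested beyond them.

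Promoter sequences are shown first, for genes and gene pairs that are named again below. RefSeq entries (GRCm38.p6), each spanning 250 bases before to 50 after a gene's start, matched 62 of the 71 genes. Only bases before the start are printed, 5′ to 3′ on the gene's own strand, with matches to short motifs in capitals. The stretch before Mrps36, the gene with the largest difference between genotypes, holds an NF-Y box (CCAAT, here on the reverse strand) and an SP/KLF GC box (GGGCGG) that occurs in overlapping copies. The stretch before Mrpl9, the gene of a large-subunit protein, holds the NRF1 motif (GCGCATG) on both strands in overlap and an ETS core (CGGAAG) on the reverse strand. The other 2 are the whole gaps between starts that face away from each other: Mrps11 beside Mrpl46, and Mrps12 beside Sars2, the mitochondrial seryl-tRNA synthetase.
Mrps36, chr13:100744660-100744809, minus strand: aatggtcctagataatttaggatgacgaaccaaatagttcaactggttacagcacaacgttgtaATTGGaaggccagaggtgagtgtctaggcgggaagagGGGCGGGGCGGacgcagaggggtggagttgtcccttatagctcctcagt
Mrpl9, chr3:94443186-94443335, plus strand: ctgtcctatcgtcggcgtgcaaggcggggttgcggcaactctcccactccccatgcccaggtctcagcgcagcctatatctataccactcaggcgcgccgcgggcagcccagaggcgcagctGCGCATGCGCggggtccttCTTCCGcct
Mrps11, chr7:78783090-78783130, plus strand: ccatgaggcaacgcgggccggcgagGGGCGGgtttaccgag
Mrps12, chr7:28741822-28741967, minus strand: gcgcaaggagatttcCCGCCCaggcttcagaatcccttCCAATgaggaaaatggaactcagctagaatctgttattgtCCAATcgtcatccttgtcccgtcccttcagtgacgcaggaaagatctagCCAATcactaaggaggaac

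Across the 62 promoters, searched on both strands over the whole 300-base window, the ETS core was found in 35 (56.5%), against 29.6% of the promoters of 10406 tested genes. ETS factors include GABP, known as nuclear respiratory factor 2, a regulator of nuclear genes for mitochondria. The YY1 core (AAGATGG) was found in 13 (21%), against 7.2%. The NRF1 motif, bound by nuclear respiratory factor 1, was found in 7 (11.3%), against 6.63%. The E-box (CACGTG), a site for MYC and related factors, was found in 5 (8.06%, against 9.88%), the GC box in 32 (51.6%, against 59.6%) and the NF-Y box in 24 (38.7%, against 38.1%). A TBP box (TATAAA) was found in 4 (6.45%, against 8.16%). A match describes letters in a window, and base composition was alike, with a median GC content of 58.2% for the mitochondrial ribosomal genes and 60% for tested genes. The shares for the ETS, YY1 and NRF1 motifs were thus above those of tested genes, and those for the GC box, E-box and TBP box below. The shares for NRF1, the E-box and the TBP box rest on only 7, 5 and 4 promoters. Those of the E-box and TBP box lie near the shares of tested genes. All of these are descriptions, with no test.

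**Figure D1:**
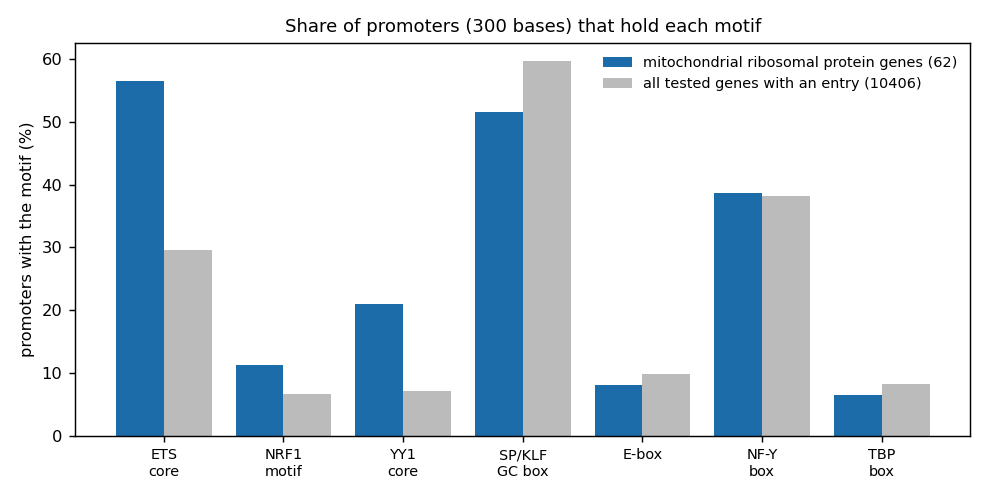
Share of promoters (percent) that hold each of 7 short motifs, for 62 mitochondrial ribosomal protein genes and 10406 tested genes with a RefSeq promoter entry. The ETS core stands at 56.5% against 29.6% and the YY1 core at 21% against 7.2%, while the NF-Y box is at 38.7% and 38.1%.

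Many of these genes share their promoter region with a neighbour. Within 1000 bases, 23 of 62 (37.1%) had a partner that starts in the opposite direction, against 1658 of 10406 tested genes (15.9%), with gaps of 8 to 756 bases and a median of 131. Several partners serve the same organelle or basic cell growth, such as Sars2 beside Mrps12 (147 bases), Ndufb5 of respiratory complex I beside Mrpl47 (308 bases), Fau, which encodes a cytosolic ribosomal protein, beside Mrpl49 (192 bases), the proteasome subunit gene Psma2 beside Mrpl32 (205 bases) and the chaperonin gene Tcp1 beside Mrpl18 (238 bases). These were picked from the 23 for what they encode. The share of such partners was not counted here or among other genes. None of the 23 partners was called; their differences lay between -0.44 and 0.30 (lowest adjusted p = 0.65, limma), and 2 (8.7%, beside 6.7% of all tested genes) had an unadjusted p under 0.05, a share near that of all genes.

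Mrpl46 and Mrps11, whose starts lie 42 bases apart, make up the one pair in which both genes encode mitochondrial ribosomal proteins. Mrpl46, of the central protuberance of the large subunit, read 7.57, 7.28, 7.02 and 7.03 in wt and 7.20, 7.16, 7.51 and 7.20 in Irak1-/-. Mrps11, of the mRNA channel of the small subunit, read 7.06, 7.27, 7.09 and 7.16 in wt and 7.15, 7.35, 6.80 and 7.20 in Irak1-/-. The genotypes overlapped for both, with differences of 0.04 (SE 0.149) and -0.03 (SE 0.115). The arrays did not order the pair alike: Irak1-/- replicate 3 was among the highest for Mrpl46 and the lowest for Mrps11.

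Most of these transcripts read above the middle of the array. All 71 genes passed the level filter, a mean of at least 3.90, and 67 lay above the array's median on every array. The filter is the 40th percentile of gene means and not a measure of detection. Mrps36 lay closest to it, with a wt mean of 3.64 below it. Their mean levels had a median of 6.90, against 5.73 over all tested genes. The highest probe set levels were those of Mrps16 (10.84), Mrpl52 (9.92) and Mrpl42 (9.06), and the lowest were those of Mrps36 (4.00), Mrps14 (4.11) and Mrpl27 (4.46). Such levels depend on each probe set's own probes and are not per length, so they do not order the transcripts by abundance.

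Between the genotypes, the mitochondrial ribosomal genes were close to level. None of the 71 was called at an adjusted p under 0.05, where 0.0751% of all tested genes were (limma with batch as a block, lowest adjusted p = 0.125, for Mrps36). At an unadjusted p under 0.05 there were 3 genes (4.23%), beside 6.7% of all genes. Mrps36 was the 1 higher in Irak1-/- (1.41%, beside 2.88%), and Mrps7 and Mrpl15 were the 2 lower (2.82%, beside 3.82%). The differences, Irak1-/- minus wt, had a median of -0.03, which is also the median of all tested genes, with quartiles of -0.12 and 0.07. Of the 71, 28 were above 0 and 43 below (60.6% below, beside 58.1% of all genes). For 59 genes (83.1%, beside 77.5% of all) the 95% interval of the difference lay wholly within 0.5 of 0, so a change of that size in either direction is outside their intervals. The differences ran from -0.39 (Mrpl15) to 0.72 (Mrps36), and without Mrps36 the highest was 0.26. Mrps36 is in neither subunit and entered the test through the Irak1-/- arrays. Without it, 2 of 70 genes (2.86%) had an unadjusted p under 0.05 and 0 of these were higher. The lowest adjusted p among the 70 was 0.681 in limma.

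**Figure D2:**
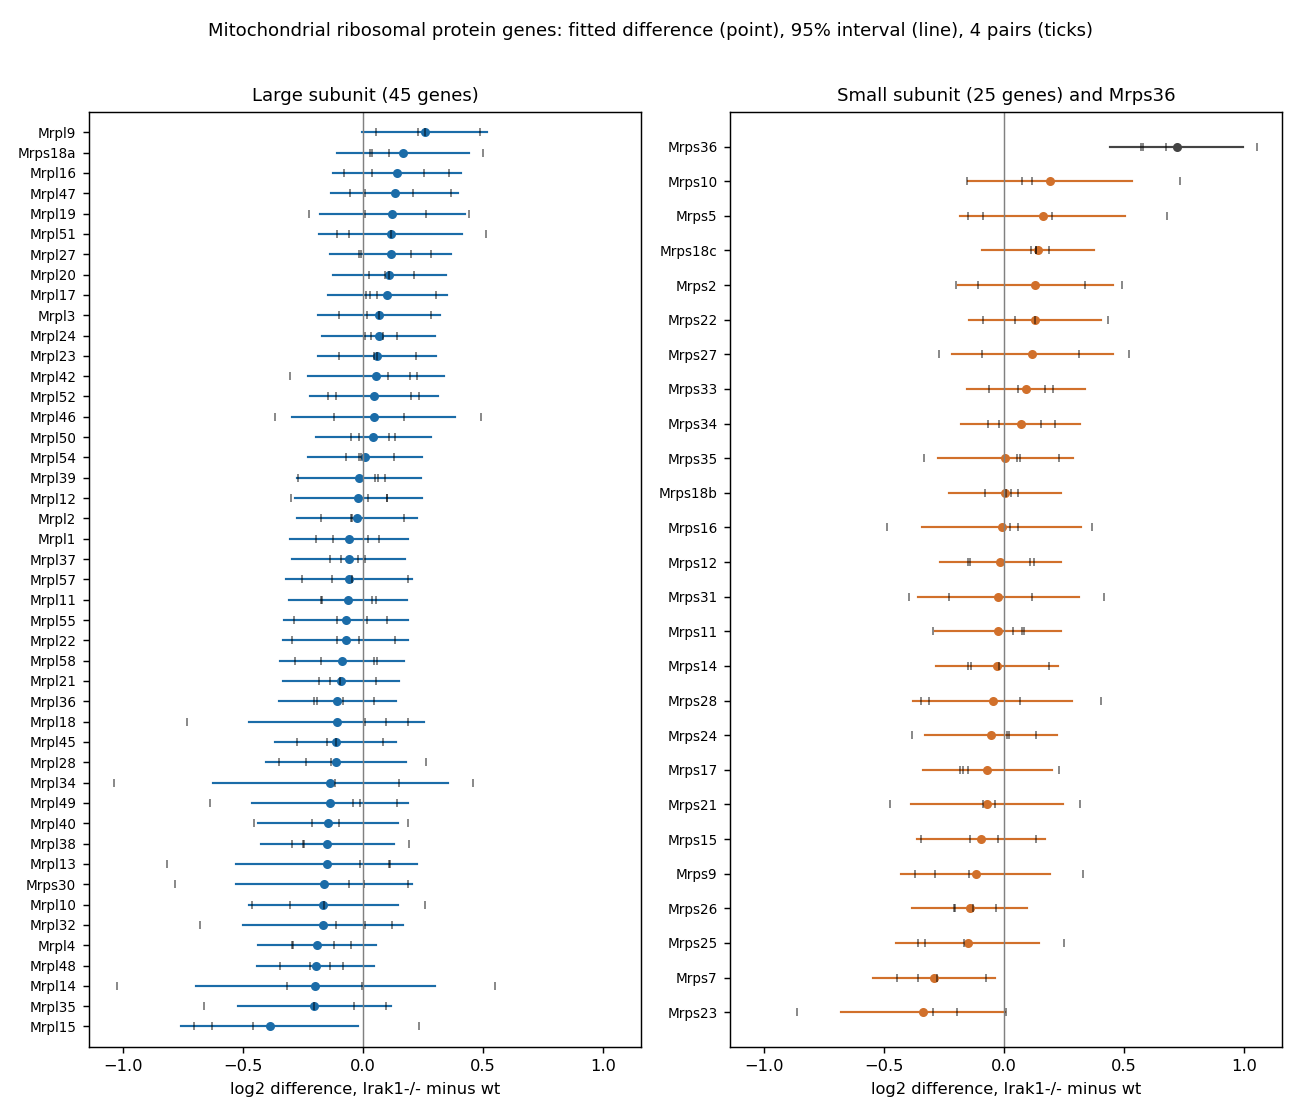
Difference in log2 level, Irak1-/- minus wt, for the 45 large-subunit genes (left) and the 25 small-subunit genes with Mrps36 (right); points are fitted differences, lines 95% intervals from limma and ticks the 4 pairs. Most intervals cross 0; Mrps36 at 0.72 stands apart from the next highest, Mrpl9 at 0.26.

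In all 4 pairs, 11 genes had the same sign (15.5%, beside 14.2% of all genes). Of these, 7 were higher in Irak1-/- (9.86%, beside 5.26%): Mrps36, Mrpl9, Mrps18a, Mrps18c, and, named after their values were seen, Mrpl20, Mrpl24 and Mrpl17. Without Mrps36 these are 6 of 70 (8.57%). The other 4 were lower (5.63%, beside 8.91%): Mrps7, Mrpl4, Mrpl48 and Mrps26. Groups that did not overlap were found for 1 gene, Mrps7 (1.41%, beside 3.04% of all genes), which was lower in Irak1-/- (beside 1.86% lower and 1.17% higher of all genes).

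Mrps36 had the largest difference. It read 3.99, 3.39, 4.00 and 3.16 in wt (mean 3.64 ± 0.425, SD, n = 4) and 4.66, 3.97, 4.57 and 4.22 in Irak1-/- (4.36 ± 0.321, SD, n = 4). Within each pair the Irak1-/- array was the higher, by 0.67, 0.58, 0.57 and 1.05, but the groups overlapped, since Irak1-/- replicate 2 lay just under 2 of the wt arrays. The difference was 0.72 (95% interval 0.44 to 1.00), a fold of 1.65, with an adjusted p of 0.125 over all genes in limma. The wt mean lay under the level filter and the Irak1-/- mean above it, so the gene entered the test through the Irak1-/- arrays. Without the pairing the adjusted p was 0.746. The myeloid marker list differed in the same direction on the same arrays, and its part in this difference was not tested.

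**Figure D3:**
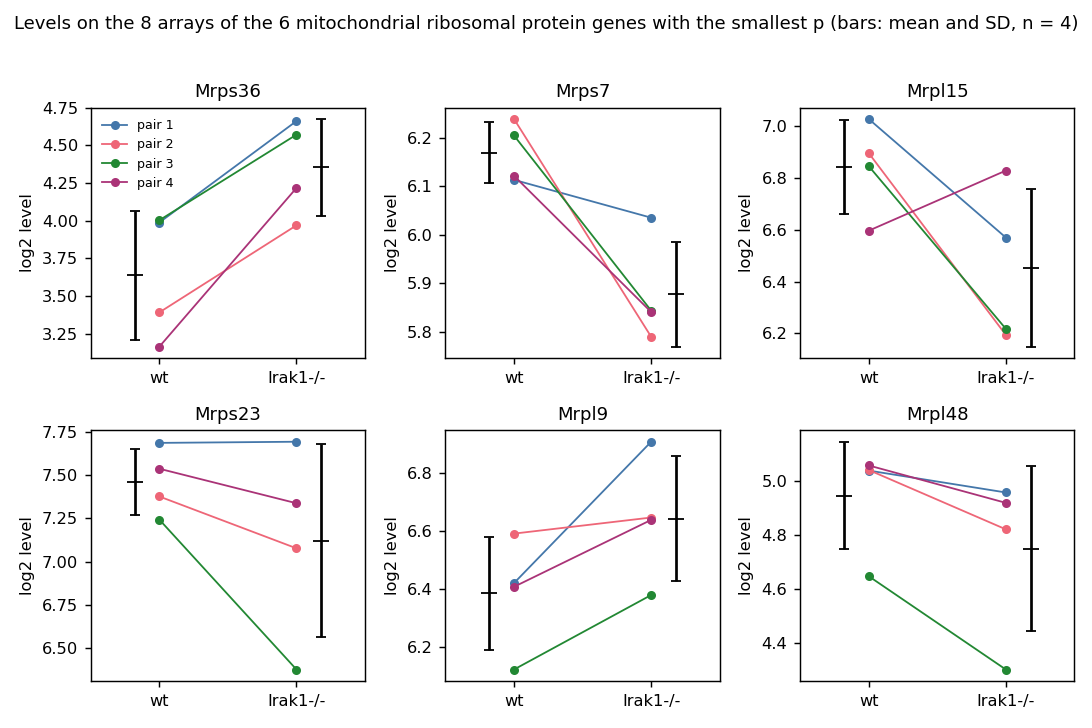
Log2 level in wt and Irak1-/- of the 6 genes with the smallest p, Mrps36, Mrps7, Mrpl15, Mrps23, Mrpl9 and Mrpl48, each panel on its own scale; lines join the arrays of a pair, and bars give the mean and SD (n = 4). All 4 lines go up for Mrps36 and Mrpl9 and down for Mrps7 and Mrpl48, while pair 4 goes up against the others for Mrpl15 and pair 3 drops furthest, to 6.38, for Mrps23.

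The enzyme complex that holds the Mrps36 protein was looked up after this value was seen. Its E1, E2 and E3 components are encoded by Ogdh, Dlst and Dld. Their differences were 0.00 (SE 0.118), 0.07 (SE 0.123) and -0.05 (SE 0.117), with adjusted p of 0.996, 0.952 and 0.965 in limma. None showed a difference near that of Mrps36, and the upper ends of their intervals were 0.27, 0.35 and 0.22.

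Among genes of the small subunit, none was called, and the median difference of the 25 was -0.02. Of these, 10 were above 0 and 15 below (60% below, beside 58.1% of all genes). Mrps7, whose protein lies in the head near the path of the mRNA, read 6.11, 6.24, 6.20 and 6.12 in wt and 6.04, 5.79, 5.84 and 5.84 in Irak1-/-. Every Irak1-/- array was below every wt array, by a mean of 0.29 (SE 0.112, adjusted p = 0.681, limma). Mrps23, whose protein has no bacterial counterpart, read 7.68, 7.38, 7.24 and 7.54 in wt and 7.69, 7.08, 6.38 and 7.34 in Irak1-/-. Its difference was -0.34 (SE 0.150, adjusted p = 0.749, limma); Irak1-/- replicate 3 was by far the lowest array, and without that pair the difference was -0.16. Mrps26 differed by -0.14 and Mrps10 by 0.19, with overlapping groups. Of the 5 genes for proteins at the decoding site and mRNA channel, 4 were below 0 (80%, beside 58.1% of all genes). The median of the 5 was -0.03, the same as that of all tested genes.

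Mrps18a, Mrps18b and Mrps18c encode 3 relatives of a single bacterial protein, of which the first is built into the large subunit and the others into the small. Mrps18a read 7.03, 7.24, 6.80 and 6.71 in wt and 7.14, 7.28, 6.83 and 7.21 in Irak1-/-. Mrps18b read 7.81, 7.68, 7.68 and 7.62 in wt and 7.73, 7.69, 7.74 and 7.64 in Irak1-/-. Mrps18c read 6.53, 6.49, 6.44 and 6.58 in wt and 6.66, 6.68, 6.57 and 6.69 in Irak1-/-. Mrps18a and Mrps18c were higher in Irak1-/- in each pair, by means of 0.17 and 0.14, and Mrps18b differed by 0.00 (SE 0.103). A second, lower probe set of Mrps18c differed by 0.10 (SE 0.202, every probe set fitted) and was higher in only 2 pairs. None of the 3 genes was called, and the differences between the relatives were not tested.

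Among genes of the large subunit, none was called, and the median of the 45 was -0.06. Of these, 17 were above 0 and 28 below (62.2% below, beside 58.1% of all genes). Mrpl15, of the core of the subunit, read 7.03, 6.90, 6.85 and 6.60 in wt and 6.57, 6.19, 6.22 and 6.83 in Irak1-/-. It was lower in 3 pairs and higher in the fourth, so the mean of -0.39 (SE 0.161, adjusted p = 0.720, limma) became -0.60 without replicate 4. Mrpl9 read 6.42, 6.59, 6.12 and 6.41 in wt and 6.91, 6.65, 6.38 and 6.64 in Irak1-/-. It was higher in each pair, by 0.06 to 0.49, with a mean of 0.26 (SE 0.114, adjusted p = 0.755), and the groups overlapped.

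Of the other large-subunit genes with small p, Mrpl4, a core protein with a bacterial counterpart, read 7.31, 7.21, 6.76 and 7.06 in wt and 7.19, 6.92, 6.46 and 7.01 in Irak1-/-. Mrpl48, of the central protuberance, read 5.04, 5.04, 4.65 and 5.06 in wt and 4.96, 4.82, 4.30 and 4.92 in Irak1-/-. Both were lower in every pair, by means of 0.19 (SE 0.108) and 0.20 (SE 0.107), and replicate 3 was the lowest array of each genotype for both. Mrpl35 read 7.59, 7.45, 7.45 and 7.43 in wt and 7.39, 7.41, 6.78 and 7.53 in Irak1-/-, a difference of -0.20 (SE 0.141). Its pairs differed by -0.21, -0.04, -0.66 and 0.10, so that pair 3 lay furthest below 0. Under other settings of the processing the difference ran from -0.30 to -0.04.

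By place in the large subunit, the median was 0.09 for 4 genes around the peptidyl transferase centre, where peptide bonds form. For 7 genes listed under the exit tunnel it was 0.06. Those 7 leave out Mrpl4 (-0.19), whose protein also borders the tunnel in the known structure. For Mrpl10, Mrpl11 and Mrpl12 of the stalk that receives translation factors the median was -0.06. For 8 genes of the central protuberance it was -0.10, with 6 of them below 0 (75%, beside 58.1% of all genes). Genes with a bacterial counterpart had a median of -0.05 and those found in mitochondria alone had one of -0.02. No gene in any of these groups was called. The standard error of a single gene's difference had a median of 0.117.

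The levels of these genes also varied with the batch. Their mean level was 7.05, 6.92, 6.78 and 6.82 in wt replicates 1 to 4 and 7.01, 6.90, 6.66 and 6.92 in Irak1-/-. Both arrays of batch 1 were the highest of their genotype and both arrays of batch 3 the lowest. The array of wt replicate 1 was the highest of all 8 for 31 genes (43.7%, beside 18.3% of all genes), and that of Irak1-/- replicate 3 the lowest for 28 (39.4%, beside 29.3%). In the batch term of the fit, added after the data were seen, no gene was called (limma, lowest adjusted p among these genes 0.407), and 10 of 71 (14.1%) had an unadjusted p under 0.05, beside 9.66% of all genes. Cell cycle genes, counted the same way, gave 17 of 24, cytosolic ribosomal protein genes 4 of 63 and respiratory chain genes 2 of 75.

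The direction of the genotype difference changed with the pair. The median over the 71 genes was -0.05, -0.04, -0.11 and 0.06 in pairs 1 to 4, and 26, 34, 30 and 52 genes were higher in Irak1-/-. As shares these are 36.6%, 47.9%, 42.3% and 73.2%, beside 49.5%, 42.7%, 42.5% and 50.2% of all genes. Pair 4 was thus the one with most genes higher and pair 1 the one with most lower. For cell cycle genes the pair medians were 0.21, -0.28, -0.39 and 0.02, and the part of proliferation in the pair differences was not tested.

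**Figure D4:**
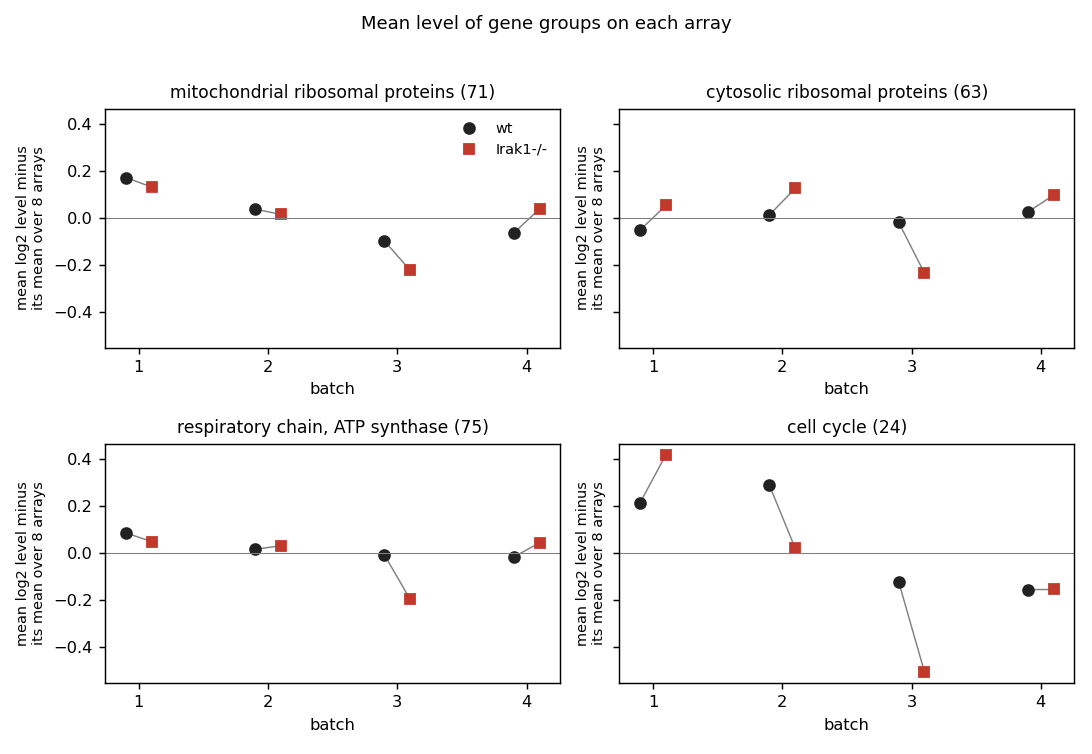
Mean log2 level per array, minus the mean over the 8 arrays, by batch for 71 mitochondrial ribosomal protein genes, 63 cytosolic ribosomal protein genes, 75 respiratory chain and ATP synthase genes and 24 cell cycle genes (circles wt, squares Irak1-/-, lines join a batch). The mitochondrial ribosomal genes are highest in batch 1 and lowest in batch 3, and Irak1-/- replicate 3 is the lowest array in all 4 panels.

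Other parts of mitochondrial protein synthesis gave no called gene either. Of 3 tested ribosome components with other names, Ptcd3 differed by 0.10, Gadd45gip1 by -0.09 and Dap3 by -0.04. Of 14 tested translation factors, 2 were higher (14.3%, beside 2.88% of all genes) and none lower at an unadjusted p under 0.05, and their median was -0.05. Mtrf1, a release factor of the family that ends translation, read 5.0, 5.06, 4.80 and 4.82 in wt and 5.25, 5.41, 5.04 and 5.41 in Irak1-/-, a difference of 0.36 (SE 0.112, adjusted p = 0.562, limma) with a slight overlap. Tufm, the elongation factor that brings aminoacyl-tRNA to the ribosome, read 6.85, 6.68, 6.71 and 6.60 in wt and 7.32, 6.92, 6.76 and 6.98 in Irak1-/-, a difference of 0.28 (SE 0.115, adjusted p = 0.709). Tsfm, the exchange factor that recharges Tufm, differed by -0.28 (SE 0.127, adjusted p = 0.778). The factor and its exchange factor thus had opposite signs, and neither passed the test.

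The 22 tested genes for assembly of the ribosome and modification of its RNA had a median of -0.11, with 16 below 0 (72.7%, beside 58.1% of all genes), and 2 lower at an unadjusted p under 0.05 (9.09%, beside 3.82%). Mrm1, a methyltransferase of the large ribosomal RNA, read 4.96, 4.34, 4.18 and 4.05 in wt and 4.03, 3.69, 3.59 and 4.02 in Irak1-/-. Every Irak1-/- array was below every wt array, with a difference of -0.55 (SE 0.150, adjusted p = 0.469, limma). It was the 1 gene of the 22 whose groups did not overlap (4.55%, beside 1.86% of all genes without overlap and lower). Its Irak1-/- mean of 3.83 lay under the level filter of 3.90 and its wt mean of 4.38 above it, so Mrm1 entered the test through the wt arrays. Ybey, a ribonuclease needed for small-subunit maturation, differed by -0.43 (SE 0.146, adjusted p = 0.603). The 19 aminoacyl-tRNA synthetases had a median of -0.03 and the 14 genes of mitochondrial transcription and RNA processing one of -0.01, with no gene of either at an unadjusted p under 0.05.

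Regulators of nuclear genes for mitochondria were looked at beside the motifs above. The 10 tested had a median of -0.11, with 8 below 0 (80%, beside 58.1% of all genes). None was called, and 1, Ppargc1b, was lower at an unadjusted p under 0.05 (10%, beside 3.82%). The 3 with the smallest p were the 3 that were lower in Irak1-/- in all 4 pairs (30%, beside 8.91%). Ppargc1b, a coactivator, was lower by 0.26 (SE 0.112, adjusted p = 0.746, limma), and the GABP subunit genes Gabpa and Gabpb1 by 0.21 and 0.12. In pair 1 these 3 genes differed by only -0.03, -0.02 and -0.04, and 6 of the 10 regulators were higher. The 75 nuclear genes of the respiratory chain and ATP synthase, whose proteins are assembled with the products of this ribosome, had a median of -0.02 and none at an unadjusted p under 0.05. The 63 cytosolic ribosomal protein genes had a median of 0.01 and 1 such gene (1.59%, beside 6.7% of all genes). This gene, Rps4l, was higher in Irak1-/- by 0.69 (adjusted p = 0.423, limma). Its wt mean of 3.83 lay under the level filter and its Irak1-/- mean of 4.52 above it. Rps4l thus entered the test through the Irak1-/- arrays.

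The choice of probe set bears on few of these values. For 9 genes there was more than 1 probe set, and for 4 of them the probe sets had opposite signs: Mrpl12 (-0.02 and 0.03), Mrpl47 (0.13 and -0.08), Mrps18b (0.00 and -0.07) and Mrps5 (0.16 and -0.14). The widest gap was 0.30 and the lowest adjusted p over these probe sets was 0.927 (limma). Mrpl30, Mrpl33, Mrpl41, Mrpl43, Mrpl44, Mrpl53 and Mrps6 had only probe sets shared with another gene and were not counted. Their 9 probe sets differed by -0.23 to 0.19.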

How the data were processed

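The authors deposited log2 probe set levels of 8 arrays. Total RNA was labelled with biotin and hybridized by Affymetrix's usual steps, per the labels' protocols. No source used here gives the background correction or normalization. Array medians lay between 4.25 and 4.31, and no counts or depth exist for arrays, so their number limits the precision. Probe sets were named from the platform's annotation, with symbols updated by gene identifier (23328 probe sets matched). Of 41345 probe sets, 23521 had 1 symbol, 1814 several and 16010 none.

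For each gene the probe set of 1 symbol with the highest mean was kept, and genes under the 40th percentile of means were left out. Irak1-/- was compared with wt by limma 3.58.1 (R 4.3.3; lmFit, eBayes) with batch as a block, two-sided, with Benjamini-Hochberg adjustment over 13308 genes. The labels state that the arrays of a batch share recipients. The deviations of the arrays from their group means correlated within pairs at 0.185, 0.143, 0.200 and 0.0799. Batches are separate experiments per the labels. No 2 arrays held the same values.

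The genes and lists were chosen with earlier results of these data known. Named are the 12 genes with the smallest p, any other gene with the same sign in all pairs and an unadjusted p under 0.05, the 3 highest and 3 lowest levels, genes whose probe sets differ in sign, the 3 Mrps18 relatives, and up to 3 genes per comparison list. Others are named as such. In simulated data on 13308 genes the fit recovered 66.2% of genes changed by 1 and 6.8% changed by 0.5 on the log2 scale. Over 5 runs with 200 changed genes each, 11 unchanged genes were called. The simulated noise was independent between genes and arrays, so no whole array stood apart as Irak1-/- replicate 3 did. There were 14 alternatives. Motifs were searched in RefSeq promoters (GRCm38.p6).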

Additional observations from a re-analysis of the deposited data

Results flagged for a closer look

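Of 42 groups of 4 arrays checked over the named genes, 2 held an array far from the other 3, and chance alone gives about 1 in 20 groups. Mrpl35 read 7.59 in wt replicate 1, where the others read 7.43 to 7.45. The gap is 0.901 of the group's whole range. Mrpl48 read 4.65 in wt replicate 3, where the others read 5.04 to 5.06, a gap of 0.954 of the range. The Irak1-/- array of the same batch was also the lowest of its genotype for Mrpl48, at 4.30.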

How the results depend on the processing

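No mitochondrial ribosomal protein gene was called by limma under any of the 14 alternatives, and their median difference stayed between -0.06 and 0.02. At an unadjusted p under 0.05, 3 genes became 1 with every probe set tested, 5 with a trended and robust prior, and 1 to 3 with a replicate left out, the 1 being without replicate 3. The median of large-subunit genes, -0.06, was -0.10 to 0.01 with a pair left out, and 0.025 without Irak1-/- replicate 3 and with no replicate block. The count of all genes called went from 10 to 16 with a random block, 16 with median centring, 16 with the trended prior, 0 with every probe set (2397 of 41345 at an unadjusted p under 0.05), and 7 to 17 with a replicate left out, the 17 being without replicate 1; the cause was not tested. Without the replicate block 11 genes were called, and 3 mitochondrial ribosomal genes had an unadjusted p under 0.05; 6 myeloid markers were called in place of 5, and 7 with a random block, and the block changed no call in the other lists. Mrps36 differed by 0.61 to 0.77 with an adjusted p of 0.111 to 0.844, and is left out by a filter at the 60th percentile. With quantile normalization 38 of 71 genes were below 0, and without Irak1-/- replicate 3 and the block 26 were, against 43. With 4 pairs, the intervals leave small shifts of single genes undetectable.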
